A study of Homo sapiens with 18 samples.

Results

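The whole-cell arm of the study set total RNA of DU145 cells treated with GC7 against total RNA of vehicle-treated cells, apart from the cytoplasmic and polysomal RNA of the same series. The samples were chosen by their titles, 3 libraries with GC7 and 3 with vehicle, 6 of the 18 in the series. DU145 is an established line from a metastatic prostate carcinoma, grown in DMEM with fetal bovine serum. GC7 (N1-guanyl-1,7-diaminoheptane) was given at 40 µM for 24 h, and control cells received its vehicle. The labels describe 1 harvest protocol for all groups, with emetine shortly before harvest, and do not say whether the whole-cell samples received it. They also do not say whether replicates were separate cultures, so the spread that p-values weigh may be a technical one. The whole-cell table holds 44682 rows. Rows at the fold change of genes without reads and numbered copies of a symbol were dropped. Among the dropped rows were 593 without a number that had this fold change but another p-value, and so held reads. After this 24231 genes remained, of which 14091 were also in the cytoplasm and polysome table and 10140 were absent from it.

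GC7 inhibits deoxyhypusine synthase, the enzyme that starts the conversion of a lysine of the translation factor eIF5A into hypusine, a residue made from the polyamine spermidine. Hypusinated eIF5A helps ribosomes through difficult stretches of a coding sequence. When translation is disturbed or amino acids run short, cells phosphorylate eIF2α, and the transcription factor ATF4 then raises genes of amino acid supply and stress, a program called the integrated stress response. Mitochondria carry a small genome of their own that is transcribed into long precursors and cut into 2 rRNAs, 13 mRNAs and 22 tRNAs.

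Each row of the table carries a fold change on a log scale and a p-value that was not adjusted, without values per library. It does not state which group is the numerator. The direction was fixed by 8 stress genes (CHAC1, TRIB3, DDIT3, ASNS, SESN2, ATF3, STC2 and DDIT4), all 8 of which are negative as deposited, so the sign was reversed and positive values below are higher with GC7. If the table was meant the other way, all directions reverse, and the direction of these 8 genes is an assumption and not a result. The SE and 95% intervals printed below for whole cells were recovered from the deposited values and were not given by the authors. The deposited pairs of fold change and p-value fit a moderated t-test with 7.2966 degrees of freedom on log2 counts with an offset of 0.5, and the SE follows from each pair. In this model no gene with a log2 fold change under 0.72 in size can reach an unadjusted p of 0.05.

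The libraries of a group differed widely from each other. Over the 14091 genes also in the fraction table, the recovered within-group SD had a median of 0.75 on the log2 scale, which is 1.68-fold. It was 0.97 for the 1018 genes with a mean normalized cytoplasmic count up to 30 and still 0.73 for the 1541 genes over 3000. An SD over 1 was found for 32.6% of the latter. The recovered relative library sizes were 0.804, 0.936 and 1.329 with vehicle and 0.777, 1.034 and 1.246 with GC7, each to the geometric mean of its group, and cannot be tied to replicate numbers. ASNS shows what this spread does to a single gene: its log2 fold change of 2.32 in the authors' deposited table carries an SE of 1.18, with a within-group SD of 1.88. CHAC1, with a within-group SD of 0.34, reached an SE of 0.37.

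No single gene passed adjustment. With the p-values adjusted by the Benjamini-Hochberg method over the 24231 genes, 0 (0%) passed 0.05, the lowest adjusted value being 0.39. Before adjustment, 674 genes (2.78%) with a p under 0.05 were higher and 531 (2.19%) lower, 1205 in all, where uniform p-values would give 1212. Of the shared genes, those also in the fraction table, 301 (2.14%) were higher and 161 (1.14%) lower, and among genes absent from it 373 (3.68%) were higher and 370 (3.65%) lower. These shares are the background for each count of a gene group below, and for whole cells "higher", "lower" and "call" refer to this unadjusted threshold only.

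**Figure D1:**
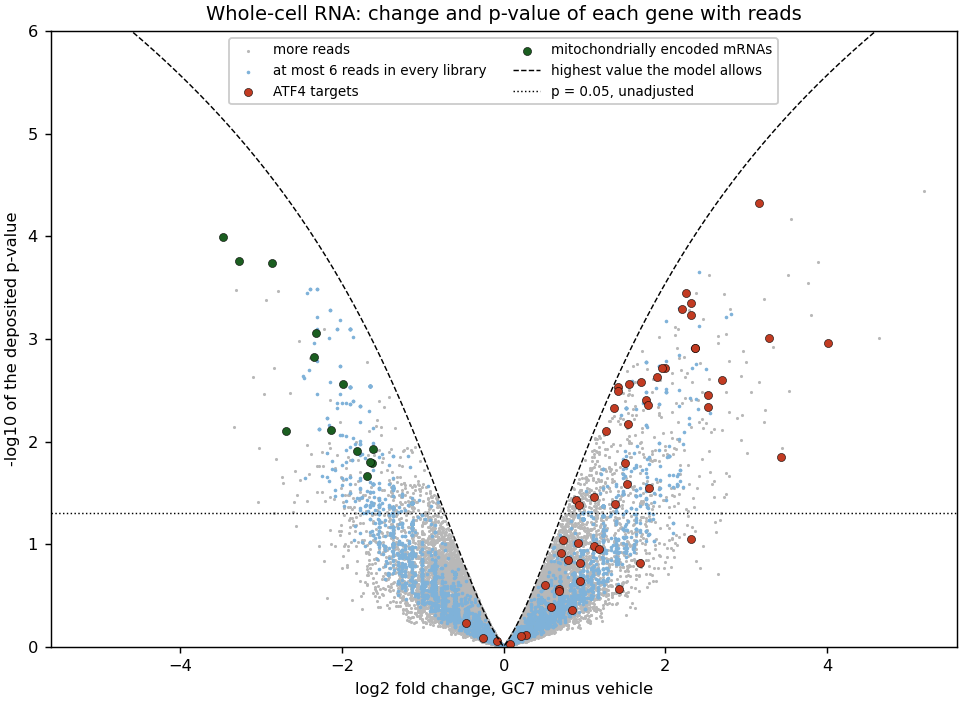
Each point is 1 of the 24231 genes with reads, with its log2 fold change (GC7 minus vehicle) on the x axis and the -log10 of its deposited p-value on the y axis. The dashed lines mark the highest value the recovered model allows for a given fold change, and 32 of 54 ATF4 targets and all 13 mitochondrial mRNAs lie above the dotted line of the unadjusted threshold.

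ATF4 targets stood to the right of all other lists. Of 54 listed targets with reads, 32 were higher at an unadjusted p under 0.05 and 0 lower, where 2.14% of genes shared with the fractions were higher, and 51 of 54 had a positive value. In the authors' deposited table the list had its median at 1.43, against -0.01 for all genes with reads. Without the 8 genes that fixed the sign, 25 of 46 were higher, 0 lower and 43 positive, with a median of 1.32. The remaining listed target, SLC7A3, had no reads.

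Among the transcription factors of this program, 4 of 8 were higher, including DDIT3 and ATF3, which helped to fix the sign. DDIT3 (CHOP), which promotes cell death under lasting stress, stood at 2.21 (SE 0.37, 95% interval 1.33 to 3.08) in the authors' deposited table. NUPR1, a small chromatin-associated stress protein, had the largest value at 3.43 but an interval of 0.92 to 5.94. ATF3 stood at 1.76 (SE 0.42) and CEBPG, a dimer partner of ATF4, at 1.27 (SE 0.35). CEBPB at 0.84 and ATF5 at 0.08 had SEs of 1.02 and 1.01, so neither a large rise nor a fall is shown or excluded for them.

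Stress regulators had 4 of 5 members higher. TRIB3, SESN2 and DDIT4 are among these and also helped to fix the sign, so their direction is assumed. TRIB3, a pseudokinase that restrains ATF4 and AKT, stood at 3.28 (SE 0.62), and both SESN2 and DDIT4, inhibitors of mTORC1, at 2.53 (SE 0.63 and 0.60) in the authors' deposited table. PPP1R15A (GADD34), which brings a phosphatase to eIF2α and so ends the response, stood at 1.55 (SE 0.35). KLHL24, at 0.51 (SE 0.41), did not reach the threshold.

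Secreted factors and surface proteins had 5 of 8 members higher, including STC2, which helped to fix the sign. GDF15, a stress cytokine that lowers appetite (chr19:18386158-18389176, GRCh38), stood at 4.01 (95% interval 2.20 to 5.82) in the authors' deposited table. ADM2, a peptide of the calcitonin family, followed at 2.70 (SE 0.60), and STC2, a secreted glycoprotein, and ULBP1, a ligand of the killer cell receptor NKG2D, both at 2.32 (SE 0.38 and 0.40). FGF21, a hormone of fasting, stood at 1.80 (SE 0.66) on very few reads. Its deposited values correspond to 0, 0 and 0 reads with vehicle and 3, 3 and 0 reads with GC7. VEGFA at 0.68 (SE 0.58) and VLDLR at -0.08 (SE 0.53) did not reach the threshold.

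Enzymes of amino acid and glutathione metabolism had 8 of 14 members higher, including CHAC1, which helped to fix the sign. CHAC1, which degrades glutathione (chr15:40953471-40956512), had the smallest p of the list, with a value of 3.16 (95% interval 2.29 to 4.03, unadjusted p = 4.68e-05) in the authors' deposited table. PCK2, mitochondrial phosphoenolpyruvate carboxykinase, stood at 2.37 (SE 0.46) and ALDH1L2, an enzyme of mitochondrial folate metabolism, at 2.36 (SE 0.46). In serine synthesis PHGDH stood at 1.99 (SE 0.42) and PSPH at 1.38 (SE 0.55), while PSAT1, the step between them, had 1.68 with an SE of 1.05. CBS, the first enzyme of transsulfuration, stood at 1.42 (SE 0.33), and CTH, the second, at 1.43 with an SE of 1.20. The values of both enzymes are alike and only the spread between libraries separates their p-values, 0.00297 and 0.272.

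Amino acid transporters had 5 of 8 members higher. SLC6A9, which carries glycine, stood at 2.25 (SE 0.36), SLC1A4 at 1.90 (SE 0.42) and SLC1A5, a glutamine carrier, at 1.54 (SE 0.41) in the authors' deposited table. SLC7A5 stood at 1.53 (SE 0.55) and its partner SLC3A2 at 1.37 (SE 0.34). SLC7A11, the cystine carrier that shares SLC3A2, had 0.80 (SE 0.49, 95% interval -0.34 to 1.95). Of the cytosolic tRNA synthetases and the tRNA export factor XPOT, 5 of 8 were higher, with WARS1 at 1.96 (SE 0.41), SARS1 at 1.79 (SE 0.44), AARS1 at 1.70 (SE 0.38), CARS1 at 1.42 (SE 0.33) and GARS1 at 1.12 (SE 0.43). Values of NARS1, EPRS1 and XPOT lay between 0.58 and 0.94 with SEs of 0.66, 0.49 and 0.59.

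**Figure D2:**
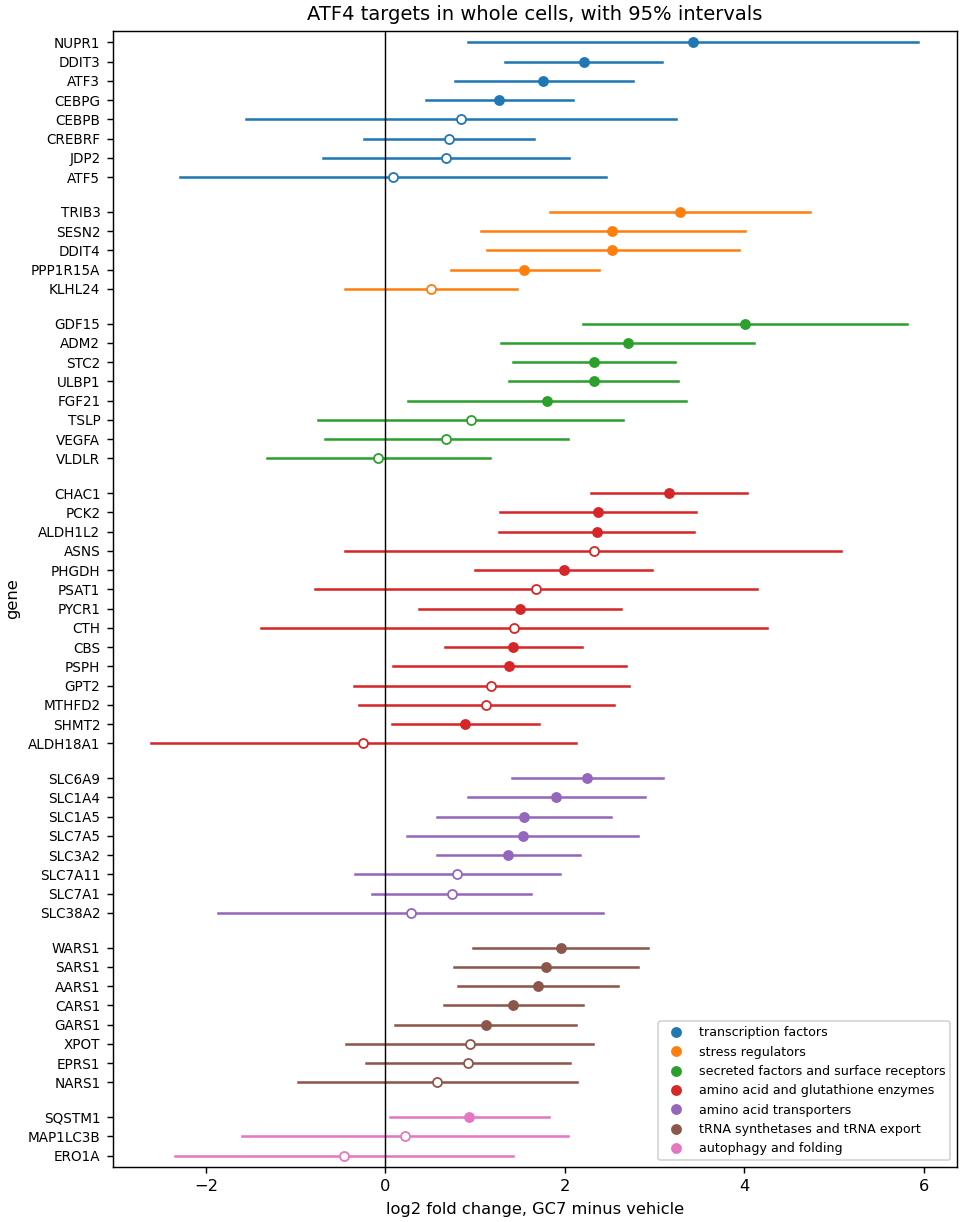
The 54 ATF4 targets with reads are grouped by role, with the log2 fold change (GC7 minus vehicle) as a point and its recovered 95% interval as a line. Filled points have an unadjusted p under 0.05, and wide intervals such as that of ASNS (-0.45 to 5.08) belong to genes with a large spread between libraries.

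ATF4 binds composite elements of the form TGATGNAA, and 14 of the 46 listed targets with a RefSeq promoter window (30.4%) hold this motif on either strand between 250 bases before and 50 after the gene start. Over all 35116 RefSeq windows the share was 3.62%, and for 11257 shared genes it was 2.7%. ATF4 targets are in part known through this element, so the share describes the list and is no finding. The windows below are shown because they carry the motif of targets from 5 roles and of KLHDC7B. That gene had the highest value among shared genes with an unadjusted p under 0.01. Listed targets with the motif but not shown were SLC1A4 (1.90), CARS1 (1.42), SLC3A2 (1.37), GARS1 (1.12), SLC7A1 (0.74), JDP2 (0.68) and NARS1 (0.58). ZMYM4-AS1, absent from the fraction table, also holds the motif and stood at -2.15, from 2, 2 and 1 reads with vehicle and none with GC7. Capitals mark the motif or its reverse complement, each sequence is written 5′ to 3′ on the gene's strand, and all come from RefSeq on GRCh38.p14. The positions are chr15:40953236-40953295 (plus strand) for CHAC1, chr1:212565190-212565249 (plus) for ATF3, chr7:97872443-97872502 (minus) for ASNS, chr19:46784878-46784937 (minus) for SLC1A5, chr16:70289660-70289719 (minus) for AARS1, chr19:48755444-48755503 (plus) for FGF21, chr19:33374045-33374104 (plus) for CEBPG and chr22:50545722-50545781 (plus) for KLHDC7B.
CHAC1: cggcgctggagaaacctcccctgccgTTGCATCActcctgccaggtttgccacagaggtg
ATF3: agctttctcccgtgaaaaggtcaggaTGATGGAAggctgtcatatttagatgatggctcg
ASNS: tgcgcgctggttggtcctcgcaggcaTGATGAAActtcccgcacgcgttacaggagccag
SLC1A5: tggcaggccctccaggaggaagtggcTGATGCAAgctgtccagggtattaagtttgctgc
AARS1: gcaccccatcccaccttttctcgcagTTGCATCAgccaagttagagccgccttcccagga
FGF21: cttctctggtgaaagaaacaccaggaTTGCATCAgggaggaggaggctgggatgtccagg
CEBPG: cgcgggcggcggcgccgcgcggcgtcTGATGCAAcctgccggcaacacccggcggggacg
KLHDC7B: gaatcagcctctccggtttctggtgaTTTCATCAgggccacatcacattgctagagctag

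Genes outside the list also hold the motif, and whether it goes with a change in them was not tested. Of 304 genes shared with the fractions that hold it, 25 (8.22%) were higher and 3 lower, and of 10953 without it 188 (1.72%) were higher and 96 lower. Without the listed targets, 15 of 290 (5.17%) were still higher and 3 lower. The median log2 fold change of those 290 was 0.06, against -0.03 for genes without the motif, so the difference lies in a few genes. By p they are led by FUT1, a fucosyltransferase, at 2.37 (SE 0.38) in the authors' deposited table, by the interleukin receptor IL20RB at 2.16 (SE 0.39) and by KLHDC7B at 4.64 (SE 0.88). GOT1, aspartate aminotransferase, stood at 1.19 (SE 0.43) and MTHFD1L, a mitochondrial folate enzyme, at 0.87 (SE 0.34). The 3 lower genes were JCAD at -1.23 (SE 0.37), BCL2A1 at -1.50 (SE 0.48) and IQGAP2 at -1.70 (SE 0.71). JCAD and BCL2A1 were also called lower in cytoplasm and in polysomes by the authors' adjusted p. These genes were picked after their values were seen.

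Mitochondrially encoded mRNAs stood at the other end. Every one of the 13 reached the unadjusted threshold on the low side, where 1.14% of shared genes did, and in the authors' deposited table their median stood at -2.14. MT-CO3, a subunit of complex IV, had the lowest value at -3.47 (-4.54 to -2.40), and MT-CO1 the highest at -1.62 (-2.76 to -0.48). Within complex IV, MT-CO2 stood at -2.86 (SE 0.41), and within ATP synthase MT-ATP6 and MT-ATP8 stood at -1.63 and -1.65 (SE 0.52 and 0.53). The subunits of complex I ranged from -3.27 for MT-ND3 (SE 0.47) to -1.69 for MT-ND5 (SE 0.58), and MT-CYB of complex III stood at -2.14 (SE 0.59). MT-ND6, the only mRNA made from the other strand, stood at -2.69 (-4.44 to -0.95), among the 4 lowest of the 13. In the authors' deposited table its fraction values were -0.50 in cytoplasm (adjusted p = 0.0868) and -0.09 in polysomes (adjusted p = 0.664). Because strandedness is not given in the sources used here, reads of MT-ND6 and of RNA from the opposite strand cannot be told apart.

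The mitochondrial rRNAs went opposite ways although they lie next to each other on one precursor. The 12S rRNA MT-RNR1 stood at 2.29 (95% interval 1.37 to 3.20) and the 16S rRNA MT-RNR2 at -1.15 (-1.96 to -0.34) in the authors' deposited table, so their intervals do not overlap. MT-RNR1 was the only one of the 462 shared genes past the unadjusted threshold that the authors' adjusted p called in the other direction in a fraction, at -2.42 in cytoplasm. The table cannot speak of mitochondrial tRNAs: all 22 sat at the fold change and p-value of genes without reads, as did 406 of 406 nuclear tRNA genes. Of 3047 rows for small RNAs, rRNAs and miRNA precursors, 2892 had no reads. The library kit is not given in the sources used here.

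**Figure D3:**
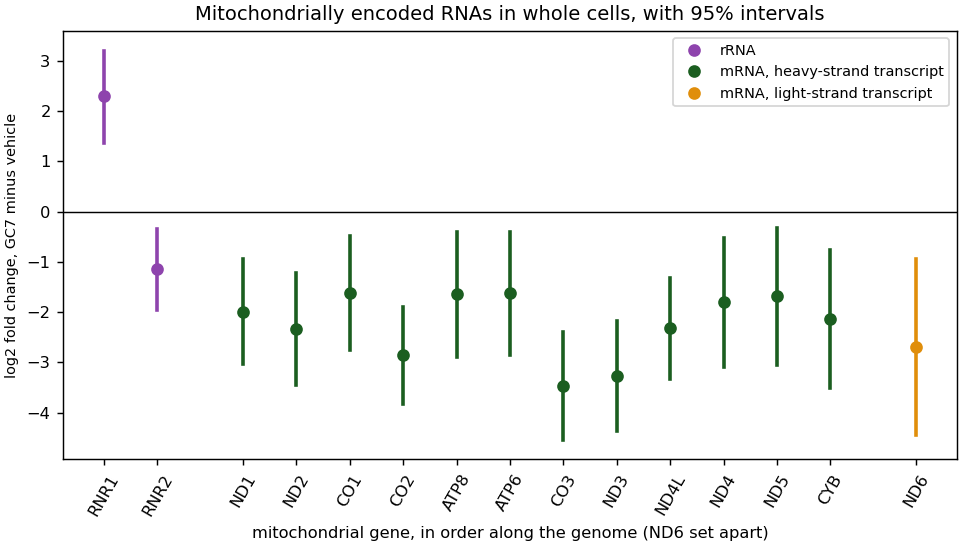
The 15 mitochondrial rRNAs and mRNAs are shown along the x axis, with the log2 fold change (GC7 minus vehicle) as a point and the recovered 95% interval as a bar. RNR1 alone lies above 0, at 2.29, and the mRNAs lie between -3.47 and -1.62.

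Lists of nuclear genes whose products work in mitochondria had no calls. Of 36 genes of mitochondrial tRNA processing 0 were higher or lower, and in the authors' deposited table their median was -0.14, with values from -0.66 to 0.38. The 70 respiratory chain genes encoded in the nucleus had 0 calls and a median of -0.02. The 16 mitochondrial chaperones and proteases had 0 calls and a median of -0.03. Median SEs of these lists were 0.53, 0.56 and 0.54, so a lack of calls does not exclude changes of single genes.

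The genes of the drug's own pathway stayed near 0, with wide intervals. EIF5A stood at 0.45 (SE 0.68, 95% interval -1.14 to 2.05), its homologue EIF5A2 at -0.49 (SE 1.04) and EIF5AL1, a near-identical copy of EIF5A whose reads cannot be told apart from it, at 0.47 (SE 0.58) in the authors' deposited table. DHPS, the enzyme GC7 inhibits, stood at 0.18 with an interval of -0.57 to 0.92, and DOHH, which completes hypusine, at 0.12 with -2.83 to 3.06. Of these genes DHPS is measured well enough to bound a change below 2-fold either way, and DOHH is not measured to within 4-fold. In polyamine synthesis ODC1 stood at 0.10 (SE 0.46), AMD1 at -0.15 (SE 0.91), SRM at -0.03 (SE 0.98) and SMS at -0.12 (SE 0.87). Among catabolic genes SAT1 stood at 0.23 (SE 0.33), SAT2 at 0.38 (SE 0.72), PAOX at -0.26 (SE 1.20) and SMOX, spermine oxidase, at 1.45 (SE 0.92, 95% interval -0.71 to 3.61). The antizymes OAZ1, OAZ2 and OAZ3, which send ornithine decarboxylase to degradation, stood at 0.24, -0.22 and 0.26, and their inhibitors AZIN1 and AZIN2 at 0.02 and 0.63. The polyamine transporters ATP13A2 and ATP13A3 stood at 0.29 and -0.59. Of all 21 listed genes, 1 was higher at an unadjusted p under 0.05: SLC3A2, which is also counted among the ATF4 targets.

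Of the 12 highest shared genes with an unadjusted p under 0.01, GDF15, TRIB3 and CHAC1 were listed ATF4 targets. KLHDC7B, a kelch-domain protein, led at 4.64 (95% interval 2.59 to 6.69) in the authors' deposited table, and its divergent noncoding neighbour KLHDC7B-DT stood at 3.52 (SE 0.53). DMGDH, dimethylglycine dehydrogenase of mitochondrial choline breakdown, stood at 3.89 (SE 0.56). LCN2, a lipocalin that binds iron-carrying siderophores, stood at 3.56 (95% interval 2.53 to 4.59). SLC34A2, a phosphate carrier, stood at 3.52 (SE 0.82), ALOX5AP, a partner of 5-lipoxygenase, at 3.23 (SE 0.81), the small GTPase RAB39B at 3.22 (SE 0.53) and VLDLR-AS1 at 3.33 (SE 0.65). Each of these except SLC34A2 was also called higher in cytoplasm, and all were called higher in polysomes, by the authors' adjusted p. IGF2, insulin-like growth factor 2, had 2.95 (95% interval 1.17 to 4.72) in whole cells and -0.22 in cytoplasm and -0.02 in polysomes, with no call there.

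The 12 lowest shared genes with an unadjusted p under 0.01 were 7 mitochondrial mRNAs and 5 nuclear genes of low abundance. The nuclear genes were COL8A2, a collagen of basement membranes, at -3.33 (SE 0.90), KBTBD11-OT1 at -2.78 (SE 0.44), NPPC, a natriuretic peptide precursor, at -2.35 (SE 0.45), INKA1, an inhibitor of the kinase PAK4, at -2.35 (SE 0.48) and TCF24 at -2.22 (SE 0.40) in the authors' deposited table. Their mean normalized cytoplasmic counts were 105, 20.9, 20.2, 36.9 and 36.5, and none was called in a fraction. For NPPC the deposited values correspond to 3, 3 and 3 reads with vehicle and 1, 0 and 0 with GC7. More generally, 95 shared genes were higher and 24 lower at an unadjusted p under 0.01. Of the 95, 69 were called in at least 1 fraction in either direction, with a median cytoplasmic count of 317, and the other 26 had a median of 30.2. The 69 include MT-RNR1, which was called lower in cytoplasm, at -2.42. Of the 24 lower genes 9 were called in a fraction, with a median cytoplasmic count of 2.07e+05, and the 15 without a call had a median of 36.5. Among the 9 are the mitochondrial mRNAs MT-CO3, MT-ND3, MT-CO2, MT-ND2, MT-ND4L and MT-CYB.

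Of the 301 shared genes higher in whole cells, 269 had a positive value in cytoplasm and 284 in polysomes, and of the 161 lower ones 133 had a negative value in each. The fractions are other libraries, fitted separately, with shrunken fold changes, so directions and calls are compared and sizes are not. Over the shared genes the authors' adjusted p called 334 higher (2.37%) and 289 lower (2.05%) for cytoplasmic RNA. For polysomal RNA it called 816 higher (5.79%) and 819 lower (5.81%). Of the 301 genes higher in whole cells, the authors' adjusted p called 100 up and 1 down in cytoplasm, and 156 up and 0 down in polysomes. Of the 161 lower in whole cells, it called 25 down and 0 up in cytoplasm, and 34 down and 0 up in polysomes. Read the other way, 299 of the 334 genes called higher in cytoplasm and 708 of the 816 in polysomes had a positive whole-cell value, and 235 of 289 and 636 of 819 of those called lower a negative one.

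Noncoding genes that are shared with the fractions leaned upward. Among the shared genes, 17 of 199 with a LINC name (8.54%) were higher and 3 (1.51%) lower, and 32 of 385 antisense or overlapping transcripts (8.31%) were higher and 6 (1.56%) lower. Protein-coding genes had 216 of 12899 (1.67%) higher and 143 (1.11%) lower. The median log2 fold changes were 0.29, 0.20 and -0.04 in the authors' deposited table, and 66.8% of LINC genes, 64.7% of antisense or overlapping transcripts and 46% of protein-coding genes were positive. Noncoding genes are less abundant, so the kinds were also compared at like cytoplasmic counts. Up to a mean count of 100, 34 of 368 LINC, antisense or overlapping genes (9.24%) were higher and 83 of 2151 protein-coding genes (3.86%). From 100 to 300 these shares were 8.89% of 135 and 1.77% of 2376, and above 300 they were 3.7% of 81 and 1.09% of 8372. The medians of the noncoding genes were 0.23, 0.28 and 0.25 in the 3 ranges, and those of protein-coding genes -0.05, -0.12 and -0.03. Among absent genes, 3.57% of 504 LINC genes were higher and 2.98% lower, and 53.2% were positive. For 739 antisense or overlapping transcripts these shares were 4.33%, 3.52% and 51.3%, and for 3355 protein-coding genes 3.58%, 4.62% and 51.4%. Without genes of few reads, 4.88% of LINC, 4.78% of antisense or overlapping and 4.14% of protein-coding absent genes were higher.

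In the fractions the medians of the shared noncoding genes lay close to 0, while their calls were more often higher than lower. For LINC names the deposited medians were 0.03 in cytoplasm and 0.03 in polysomes, and for antisense or overlapping transcripts 0.02 and 0.03, all shrunken values. In cytoplasm 4 of 199 LINC genes (2.01%) and 12 of 385 antisense or overlapping transcripts (3.12%) were called higher, and in polysomes 13 (6.53%) and 28 (7.27%). Whether the whole-cell and fraction values of these genes differ was not tested. By p in the authors' deposited table, these genes were led by KBTBD11-OT1 at -2.78 (SE 0.44) and VLDLR-AS1 at 3.33 (SE 0.65). Next on the high side came ARHGEF2-AS2 at 1.64 (SE 0.34), ENTPD3-AS1 at 2.21 (SE 0.54), NQO2-AS1 at 2.53 (SE 0.62) and LINC01686 at 2.42 (SE 0.64). On the low side LINC01224 followed, at -1.48 (SE 0.37). VLDLR-AS1 was called higher in cytoplasm, at 1.95, and in polysomes, at 1.76. The other noncoding genes named here were called in neither fraction. Strandedness is not given in the sources used here, so reads of an antisense gene and of its partner cannot be told apart. VLDLR and VLDLR-AS1 stood apart, at -0.08 (SE 0.53) and 3.33 (SE 0.65).

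**Figure D4:**
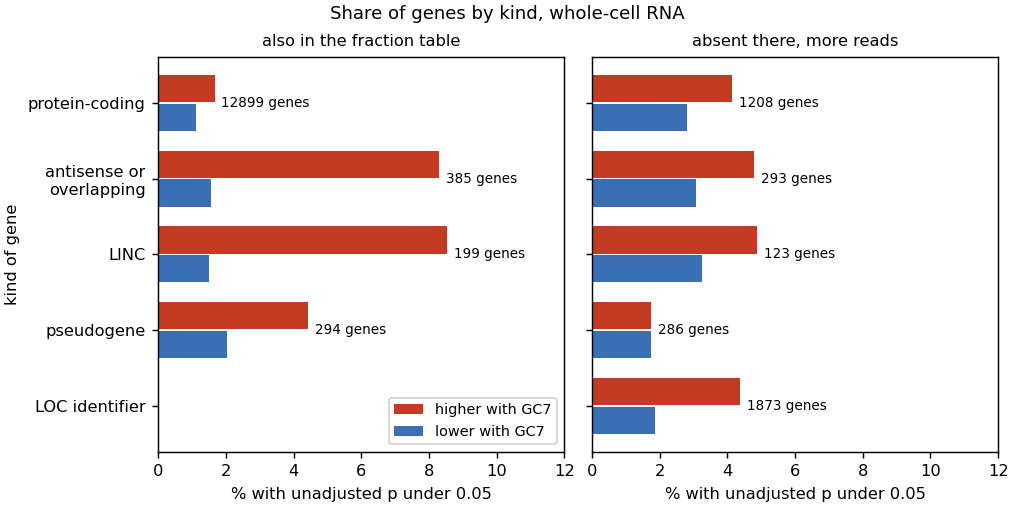
Bars give the percentage of genes of each kind with an unadjusted p under 0.05, higher or lower with GC7, for genes also in the fraction table (left) and for genes absent from it with more than a few reads (right). LINC and antisense or overlapping genes reach 8.54% and 8.31% higher on the left against 1.67% of protein-coding genes, and the kinds lie closer together on the right.

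Known nuclear RNAs and host genes of snoRNAs were also read as lists. The 24 nuclear long noncoding RNAs had 0 calls and a median of -0.12, or 0.09 over the 17 that are shared with the fractions, with MALAT1 at -1.27 (SE 1.08) and NEAT1, the scaffold of paraspeckles, at -0.68 (SE 0.37) in the authors' deposited table. Among host genes of snoRNAs, 2 of 23 were higher, GAS5 at 1.84 (SE 0.41) and ZFAS1 at 1.44 (SE 0.56). None was lower, 16 were positive and the median was 0.39. SNHG8 stood at 2.08 and SNHG32 at 1.55, but with SEs of 1.06 and 0.82, and SNHG10 lay lowest at -0.83 (SE 0.51). Ribosomal protein genes, which like many of these hosts carry a terminal oligopyrimidine tract, had 0 of 77 higher or lower, a median of 0.24 and 61 of 77 positive values.

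The genes absent from the fraction table rest largely on a handful of reads. For 6070 of the 10140 (59.9%), the deposited pair of fold change and p-value equals that of a set of at most 6 reads in every library, as it does for 523 of the 14091 shared genes (3.71%). Among 8515 abundant shared genes, with a mean normalized count over 300 in both fractions, 149 (1.75%) matched such a set. This is the share of abundant genes that match, and not the share of matches that are false. It is not small beside the 3.71% of all shared genes, so reads given for a shared gene may rest on a false match. Of the absent genes called at the unadjusted threshold, 199 of 373 higher and 277 of 370 lower matched. Over all called genes with such matches, 111 of the 211 higher (52.6%) and 152 of the 288 lower (52.8%) had no read in the other group. The median number of reads in the group that had them, summed over its 3 libraries, was 6 for higher and 5 for lower genes. The commonest set among called genes, in 44 of them, was 1, 1 and 0 reads with vehicle and none with GC7.

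Examples show how little lies behind some of the smallest p-values. VNN1, vanin 1, and IMPG2, a proteoglycan of the retina, both stood at -2.31 (SE 0.36, unadjusted p = 0.000328) in the authors' deposited table, from 2, 3 and 1 reads with vehicle and none with GC7. ADD3-AS1 stood at 2.01 (SE 0.36) from no read with vehicle and 2, 2 and 1 with GC7. PXT1, a testis gene, stood at 2.82 from 2, 4 and 4 reads with GC7 and none with vehicle, and the protease ADAMTS8 at 2.75 from 4, 4 and 6 with GC7 and 0, 1 and 0 with vehicle. The order of reads follows the recovered libraries and not the replicate numbers.

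When genes with such matches were set aside, 174 of 4070 absent genes (4.28%) were higher and 93 (2.29%) lower. LINC01512 (chr6:43891028-43938207, GRCh38), a long intergenic noncoding RNA, had the smallest p of the whole table, with a value of 5.20 (95% interval 3.82 to 6.57, unadjusted p = 3.65e-05) in the authors' deposited table. MLANA, a melanosome protein known as a melanocyte marker (chr9:5890889-5910606), stood at 3.77 (2.40 to 5.13), RUBCNL, a regulator of autophagy, at 3.81 (SE 0.66) and ADA2, a secreted adenosine deaminase, at 2.72 (SE 0.44). On the low side PAPOLB, a testis poly(A) polymerase (chr7:4857738-4862030), stood at -3.31 (-4.54 to -2.08) and the mitochondrial carrier SLC25A48 at -2.94 (SE 0.48). Chosen after their values were seen, SEC14L5 stood at 3.00 (SE 0.62), the relaxin-family receptor RXFP4 at 1.60 (SE 0.34), the phosphodiesterase PDE3A at -2.97 (SE 0.70) and BCO1, which cleaves beta-carotene, at -2.64 (SE 0.62).

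Among other lists, heat shock chaperones leaned downward: 24 of 24 members lay below 0 in the authors' deposited table, 23 of 24 once values were centred on the median of shared genes (STIP1, at -0.02, then turns positive). Their median was -0.57, and 52.7% of shared genes were negative. Only HSPH1 (HSP110) at -1.23 (SE 0.44) and HSPA6 at -1.27 (SE 0.45) reached an unadjusted p under 0.05. In the fractions neither had a call, with HSPH1 at -0.30 in cytoplasm and -0.23 in polysomes and HSPA6 at 0.11 and 0.07. HSPA8, the constitutive HSP70, stood at -0.85 (SE 0.58), HSP90AA1 at -0.87 (SE 0.38) and DNAJA1 at -1.28 (SE 1.04). HSPA8 had no call in cytoplasm, at 0.01, and was called lower in polysomes, at -0.45, while HSP90AA1 and DNAJA1 were called in neither fraction. HSPA1A and HSPA1B, near-identical copies whose reads may be shared, stood at -0.72 (SE 0.36) and -1.31 (SE 0.67). Proliferation genes leaned the same way. DNA replication genes had 1 of 42 lower (CLSPN, -1.19, SE 0.45), a median of -0.49 and 38 negative values, and mitosis genes 1 of 39 lower (ASPM, -1.13, SE 0.47), a median of -0.42 and 35 negative values. Of 24 cholesterol synthesis genes and their regulators 2 were lower, among them LSS, lanosterol synthase, at -0.77 (SE 0.32), and the median was -0.33. Fewer cells at a stage of the cycle and less RNA per cell cannot be told apart in bulk RNA.

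Interferon-stimulated genes leaned upward, with 5 of 37 higher, 0 lower, 30 positive and a median of 0.57. OASL, a relative of the 2′-5′ oligoadenylate synthetases, led at 2.12 (SE 0.38, unadjusted p = 0.000766) in the authors' deposited table, followed by IFIT2 at 2.07 (SE 0.76), MX2 at 1.84 (SE 0.58), CMPK2 at 1.48 (SE 0.56) and MX1 at 0.96 (SE 0.36). CMPK2 rests on 2, 2 and 0 reads with GC7 and none with vehicle. In the fractions IFIT2 had no call, at 0.15 in cytoplasm and 0.11 in polysomes, and neither had IFIT1, IFIT3, ISG15 and IFI6. MX1 had no call in cytoplasm, at 0.36, and was called higher in polysomes, at 0.68. STAT2 and IRF9, factors that carry the interferon signal, stood at 0.15 and 0.43, and interferon genes had at most 2 reads in any library (IFNB1, IFNL1, IFNL2 and IFNL3). Cytokines and NF-kB targets had 2 of 27 higher and 1 lower, with a median of 0.11: LCN2 as above, IL24 at 1.86 (SE 0.53) and CSF2, GM-CSF, with an interval of -1.84 to -0.16.

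Immediate early genes had 4 of 33 higher and 1 lower, with a median of 0.32. ATF3, which helped to fix the sign, is among the 4. FOSB stood at 2.08 (SE 0.45), ARC at 1.84 (SE 0.66), ATF3 at 1.76 and KLF4 at 1.28 (SE 0.38) in the authors' deposited table, while FOS stood at -0.67 (SE 0.88) and EGR1 at 1.26 (SE 0.56, 95% interval -0.05 to 2.57). EGR3, at -1.90 (SE 0.47), rests on 1, 1 and 2 reads with vehicle and none with GC7. FOSB had no call in the fractions, at 0.03 in cytoplasm and 0.17 in polysomes. Of 22 genes of the unfolded protein response 2 were higher, the sensor ERN1 (IRE1) at 1.60 (SE 0.40) and the chaperone CLGN at 1.05 (SE 0.40), and the median was 0.12. The p53 targets had 1 of 22 higher, TNFRSF10B (death receptor 5) at 0.94 (SE 0.34), with CDKN1A (p21) at 1.08 (SE 0.47, 95% interval -0.02 to 2.17) and a median of 0.33.

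Other lists held 1 call or none. Replication-dependent histones had 1 of 55 lower (H2BC14, from 2, 1 and 3 reads with vehicle and 0, 1 and 0 with GC7) and a median of 0.16. Autophagy and lysosome genes had 1 of 31 higher (SQSTM1, a selective autophagy receptor, at 0.93), clock genes 1 of 17 (NFIL3, at 1.48), and glycolysis genes 1 of 20 lower (PFKFB4, at -0.98) in the authors' deposited table. Genes of the TCA cycle (22), collagens and their processing enzymes (22), metallothioneins and oxidative stress genes (16) and abundant small noncoding RNAs (17 with reads of 32) had 0 calls, with medians of 0.00, -0.02, 0.25 and 0.21.

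**Figure D5:**
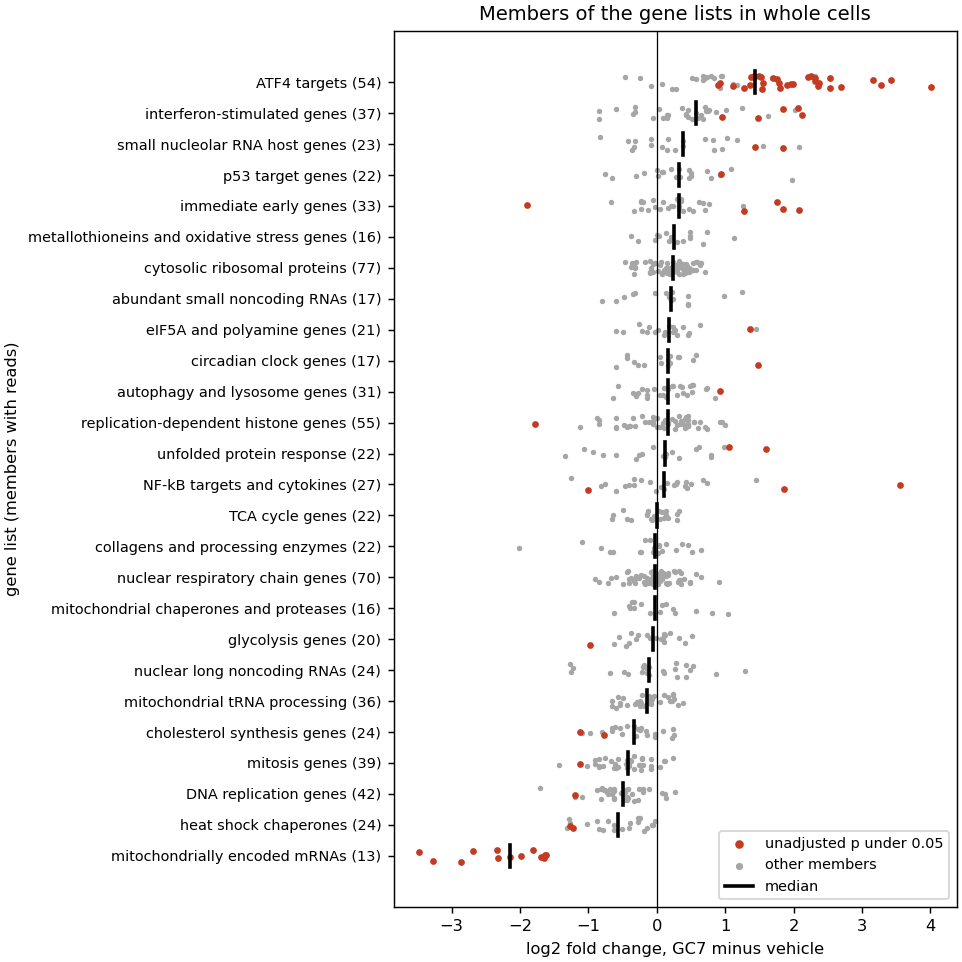
Each row is a gene list with the number of its members that have reads, each point is a member at its log2 fold change (GC7 minus vehicle), and the bar is the list's median. Red points have an unadjusted p under 0.05 and are rare outside the ATF4 targets (32 of 54) and the mitochondrial mRNAs (13 of 13), while medians run from -2.14 to 1.43.

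Marker genes were read as a check of the label of the line. All 11 epithelial markers listed for DU145 had reads. Of 10 luminal, androgen-responsive prostate markers 5 had no read, among them KLK2 and KLK3 (PSA). Of 10 leukocyte markers 4 had no read, PTPRC (CD45) among them, and of 8 neuroendocrine markers 1 had none. All 8 endothelial markers had reads, but 6 of the 7 that entered the counts matched a set of few reads. All 9 fibroblast markers had reads, and 2 of the 8 that entered the counts matched such a set. COL1A1, COL1A2 and COL3A1 had mean normalized cytoplasmic counts of 62.5, 26.1 and 12.7. No marker of any of the 6 marker lists was higher or lower at an unadjusted p under 0.05.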

How the data were processed

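The values come from 2 comparison tables that the authors deposited. The whole-cell table holds, per the file headers, a symbol, a log fold change (read as log2 from the step between no read and 1 read) and a p-value that the authors did not adjust. Per the file headers, the fraction table holds a mean normalized count per gene, a log2 fold change, its SE and adjusted p-values. The submitters' processing notes name STAR 2.7.8a, Salmon 1.4.0 and GRCh38, with no role or order given in the sources used here. The program behind the whole-cell p-values is likewise not given in the sources used here.

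Rows within 0.00015 of the no-read fold change (18022) and rows named symbol_number (5099) were dropped. Gene names were matched through RefSeq symbols, and 1533 of 15747 fraction genes matched no whole-cell row. The Benjamini-Hochberg adjustment ran over 24231 genes in Python 3.11.15, numpy 2.4.6, pandas 2.3.3 and scipy 1.17.1. Degrees of freedom, prior SD (0.56255 log2), library sizes and the sets of few reads were recovered from rows with 0 or 1 read and tested on simulated data. The simulated data followed the same model, so they test the recovery and cannot show that the authors' program used this model. Rows with 1 read in one group gave 7.2963 degrees of freedom and those with 1 read in the other group 7.2969. Where several sets of reads fit, the one with the fewest reads was taken. Total depth per library is unknown.

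Named genes were the 8 stress genes, the mitochondrial and eIF5A lists, the 12 highest and 12 lowest shared genes with unadjusted p under 0.01, the 10 absent genes of smallest p in each direction, and, of each other list, up to 4 members of smallest p and any member with unadjusted p under 0.05. Further members of the lists, and other genes, were chosen after their values were seen. Members, lists and rules were chosen with earlier results of these data known, so no list was tested. Values of a few single genes are not reported here.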

Additional observations from a re-analysis of the deposited data

Results flagged for a closer look

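All comparisons left out the rows that carry a symbol with a number added, and 2429 of them have reads. Of these, 67 were higher and 64 lower at an unadjusted p under 0.05. A pair of copies of ATF4 targets stood above the level of genes without reads: PCK2_1 at a log2 fold change of 2.67 (SE 0.44, unadjusted p = 0.000457) and SESN2_1 at 2.59 (SE 0.53, unadjusted p = 0.00152), both as the authors' deposited table gives them with the sign reversed. The rows without a number stood at 2.37 for PCK2 (SE 0.46) and 2.53 for SESN2 (SE 0.63). What a numbered copy stands for is not given in the sources used here.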

How the results depend on the processing

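The table has no values per library. No paired analysis was possible because the columns carry no library, and leaving out each library in turn could not be run for the same reason. Of the counts of genes at an unadjusted p under 0.05 (674 higher and 531 lower), a threshold of 0.01 left 201 and 106, and genes also in the fraction table alone gave 301 and 161. Without genes of few reads, an alternative chosen after seeing the data, 243 were lower and 463 higher. Keeping rows at the no-read value, keeping numbered copies, a tolerance of 0.001 and a minimum log2 fold change of 1 left both counts within 1.5 times. No gene passed adjustment in any set: the smallest adjusted p was 0.642 over all rows, 0.422 over shared genes, 0.395 over genes with more reads and 0.39 with an estimated share of unchanged genes of 1.01. Centring on the median of shared genes moved list medians by at most 0.03 and turned the sign of 4 lists near 0 (nuclear respiratory chain, mitochondrial chaperones and proteases, collagens, TCA cycle). The mean in place of the median moved them by up to 0.21, and members in the fraction table alone by up to 0.69, which turned the sign of nuclear long noncoding RNAs (0.09) and neuroendocrine markers (-0.23). Genes whose libraries differ widely, such as ASNS (SE 1.18), limit every statement on single genes.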
